A study of Mus musculus with 30 samples.

Results

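RNA recovered with an antibody against PTBP1 was compared with RNA recovered with an antibody against nucleolin in axoplasm of the injured mouse sciatic nerve. The members were the 6 immunoprecipitation (IP) libraries of injured nerve, 3 with an antibody against PTBP1 and 3 with an antibody against nucleolin, of 30 samples in the series. They were chosen by their titles, and the 2 deposited count tables that hold them were joined on the Ensembl transcript identifier. Nerves had been crushed 7 days earlier, 10 nerves were pooled for each sample, and each group had 3 repeats that the labels describe as independent. No strain, sex or age of the mice is named in the labels. Axoplasm is the soluble content pressed out of the nerve, and here it was the supernatant of ground whole nerve, so it can hold RNA of Schwann cells, fibroblasts and macrophages as well as axons. As background, each antibody was also used after incubation with its own blocking peptide (blocked IP, 3 libraries per antibody). The same groups from naive, uncrushed nerve and the 3 injured inputs, sequenced without IP, served for comparison. In such samples, fewer cells of a type and less RNA per cell cannot be told apart.

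PTBP1, the polypyrimidine tract binding protein, recognises stretches of cytosine and uracil in RNA; in the nucleus it represses splicing, and in the cytoplasm it affects the stability, translation and location of mRNAs. Nucleolin is an abundant nucleolar protein of ribosome production that also binds mRNAs outside the nucleus and is known for carrying mRNAs such as those of importin beta 1 and mTOR in sensory axons. The comparison of the 2 IPs shows which transcripts each antibody retained more of from the same kind of extract.

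Many of the transcripts higher in either IP carried different sequence tracts, and a few examples are shown first. In each line the capitals mark the start of the transcript's longest uninterrupted run of C and T, preceded by 5 bases, read on the sense strand from the GENCODE annotation of GRCm38. All 7 runs lie in 3′ untranslated regions of transcripts that were higher in the PTBP1 IP.
Tagln2 (chr1:172506863-172506892, plus strand, run of 61 bases): aattgCCTCTCTCTCTCTCTCTCTTTCTCT
Gpr157 (chr4:150105512-150105541, plus strand, run of 61 bases): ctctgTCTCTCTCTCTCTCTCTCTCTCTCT
Lbh (chr17:72941637-72941666, plus strand, run of 87 bases): tctggCCTCCTCTTTTCCTCCTCCTCCTCC
Son (chr16:91663873-91663902, plus strand, run of 41 bases): ttttaTCTTTTTCTTTTCTTCTTTTCTTTT
Marcks (chr10:37135567-37135596, minus strand, run of 54 bases): tcttgTCCTTTCTTTCTTTCTTTCTTTCTT
Rhoa (chr9:108337480-108337509, plus strand, run of 53 bases): tattgCTTCTTTTCTTTTTCTTTCTTTCTT
Gatm (chr2:122595124-122595153, minus strand, run of 18 bases): ccttgTCTTTCTTTTTCCTCTTTggtagac

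Most transcripts higher in the nucleolin IP held long repeats of alternating C and A, and 4 with short repeats are shown beside them: Cat, Klf6, Ano3 and Clk4. Capitals here mark the longest such repeat, preceded by 5 bases. The Pkd2 and Clk4 transcripts are retained-intron forms without a coding sequence, and the other 6 repeats lie in 3′ untranslated regions.
Proser3 (chr7:30539179-30539208, minus strand, repeat of 42 bases): aacacCACACACACACACACACACACACAC
Mta3 (chr17:83814779-83814808, plus strand, repeat of 47 bases): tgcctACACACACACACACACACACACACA
Pkd2 (chr5:104493449-104493478, plus strand, repeat of 45 bases): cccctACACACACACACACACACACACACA
Igsf6 (chr7:121064119-121064148, minus strand, repeat of 27 bases): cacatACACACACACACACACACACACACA
Cat (chr2:103454332-103454361, minus strand, repeat of 16 bases): catacCACACACACACACACAtgcaataca
Klf6 (chr13:5868927-5868956, plus strand, repeat of 16 bases): cacatACACACACACACACACcggctgtat
Ano3 (chr2:110656431-110656460, minus strand, repeat of 10 bases): ttagtCACACACACAaaataaaactacttt
Clk4 (chr11:51275785-51275814, plus strand, repeat of 8 bases): aattaACACACACggacctaaaacctgaaa

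Every PTBP1 IP library was deeper than every nucleolin IP library. The former held 14801559 to 21161493 counts and the latter 11443809 to 13978672 over the 12681 joined transcripts, which are 84.3% of the PTBP1 table and 80.1% of the nucleolin table. The blocked libraries held 8369459 to 20896921. PTBP1 IP libraries 1 and 2 stood apart in composition: their 100 most abundant transcripts took 56.9% and 55.1% of all counts, against 31.6% in PTBP1 IP library 3 and 28.2% to 35.7% in the nucleolin IPs. Library 3 of the PTBP1 IP was also closer to library 3 of the nucleolin IP (correlation of log2 CPM 0.935) than to its own replicates (0.818 and 0.856). Levels are given as CPM, counts scaled to a common library size after the TMM correction for such composition. As a check of the tissue, the 15 measured genes of a list for myelin and Schwann cells together reached 9900 to 25410 CPM in the PTBP1 IPs and 3242 to 6899 CPM in the nucleolin IPs. Of 15 neuronal markers 5 were in both tables, and together they reached 51.0 to 143 CPM in the PTBP1 IPs and 69.7 to 130 CPM in the nucleolin IPs.

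Of 12618 transcripts tested, 190 were higher in the PTBP1 IP and 42 were higher in the nucleolin IP at an adjusted p under 0.05 (1.84% of those tested; edgeR quasi-likelihood test, Benjamini-Hochberg adjustment, 2-sided). At an unadjusted p under 0.05 there were 1105 (8.76%). In all 232 the 3 libraries of one IP lay above the 3 of the other, which held for 22.6% of all transcripts tested. The median log2 fold change was 3.84 among the 190 and -3.71 among the 42, and over all tested transcripts it was -0.12. Scaling to library totals alone, without the composition correction, moved that overall median to -0.86 and called 70 higher in the PTBP1 IP and 63 higher in the nucleolin IP. With the repeat number as a block the counts were 115 and 29, and 131 of the 232 were still called.

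The count of calls depended on single libraries. No transcript passed the adjusted threshold without PTBP1 IP library 1 (smallest adjusted p 0.0715), without PTBP1 IP library 2 (0.0671), without nucleolin IP library 1 (0.148) or without nucleolin IP library 2 (0.14). Without nucleolin IP library 3, 21 transcripts were higher in the PTBP1 IP and 42 in the nucleolin IP, and without PTBP1 IP library 3 the counts were 305 and 20. In each of these 6 fits all 232 transcripts kept an unadjusted p under 0.05. They also kept their direction, which the lack of overlap between the groups had fixed beforehand. These fits share most of their libraries with the main fit, so neither result is separate evidence. Without all 4 injured libraries numbered 3, 243 and 35 transcripts passed, 203 of them among the 232.

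The transcripts with the largest difference toward PTBP1 encode proteins of varied function. Tagln2, transgelin 2, an actin-binding protein, had 42810, 56970 and 3579 CPM in PTBP1 IP libraries 1, 2 and 3, and 145, 156 and 304 CPM in the nucleolin IP. Its log2 fold change was 7.42 (SE 1.29, adjusted p = 0.0201). Lbh, a transcriptional cofactor, had 55170, 31500 and 1925 CPM in the PTBP1 IP against 240, 168 and 147 CPM (log2 fold change 7.32, SE 1.19, adjusted p = 0.0183). The third PTBP1 library was the lowest for both, yet stayed above every nucleolin library. Son, a nuclear speckle protein that supports splicing, had 12330, 9302 and 1572 CPM against 43.4, 47.4 and 66.2 CPM. Gpr157, an orphan G protein-coupled receptor, had 35530, 17640 and 797 CPM against 173, 48.5 and 50.9 CPM.

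The rest of the 12 largest showed the same pattern. Tox2, a transcription factor of the HMG-box family, had the largest log2 fold change of these, 7.98 (SE 1.65, adjusted p = 0.0295). The others were Frg1, Stard5, a lipid carrier of the START family, Specc1, Col6a2, a chain of collagen VI, Sp100, a component of nuclear bodies, Pdk4, a kinase that restrains pyruvate dehydrogenase, and Gltp, the glycolipid transfer protein. Their log2 fold changes lay between 6.84 for Gltp and 7.58 for Frg1. With the repeat number as a block 3 of the 12 lost the call: Tox2 (adjusted p = 0.0647), Gpr157 (0.0516) and Col6a2 (0.0558). In each of the 12 PTBP1 IP library 3 was the lowest of the PTBP1 libraries, and all PTBP1 libraries were above all nucleolin libraries.

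**Figure D1:**
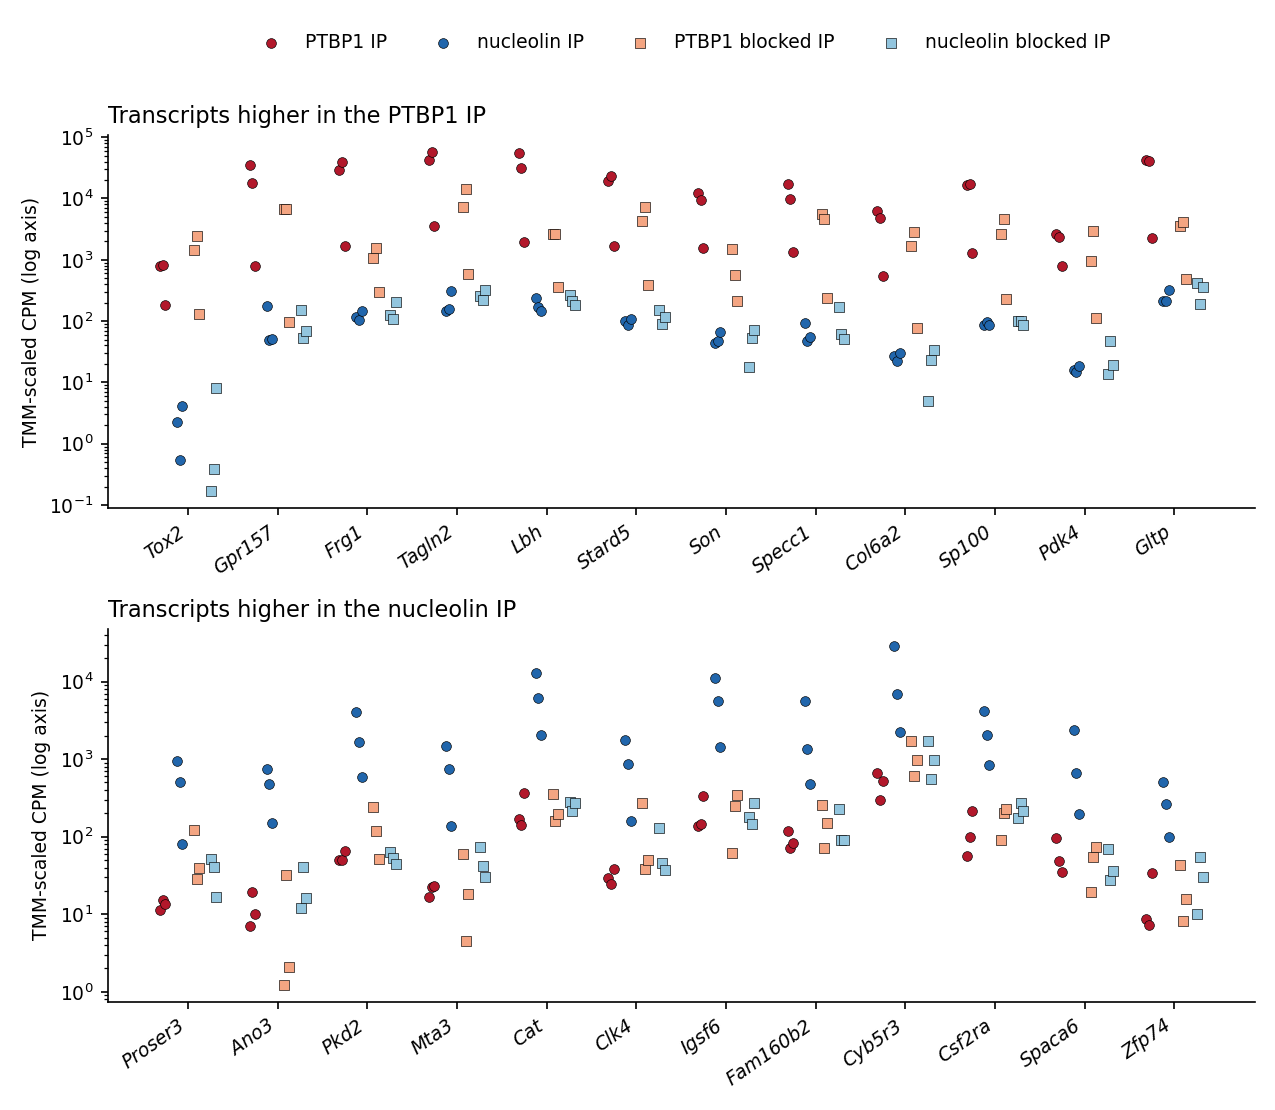
Level of the 12 transcripts with the largest difference in each direction, in TMM-scaled CPM on a log axis. Each point is 1 library of injured nerve, offset from left to right by repeat number within a group. In the upper panel the PTBP1 IP points lie above the points of both nucleolin groups, and the PTBP1 blocked IP points range from near the nucleolin level to above the PTBP1 IP in Tox2. In the lower panel the nucleolin IP points lie above the PTBP1 IP points, for example Cat at 2046 to 12880 CPM against 141 to 362 CPM.

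A few of the 190 transcripts took a sizeable part of the PTBP1 libraries. They were singled out after their values were seen. Col1a1, the main chain of collagen I, made up 8.40%, 5.97% and 1.63% of the counts of PTBP1 IP libraries 1 to 3, and 0.562%, 0.583% and 0.704% of the nucleolin IP libraries. Its log2 fold change was 4.32 (SE 0.834, adjusted p = 0.0245). Gatm, which catalyses the first step of creatine synthesis, made up 4.16%, 1.91% and 1.40% against 0.0791%, 0.0674% and 0.168%, and differed by 5.75 on the log2 scale (SE 0.821, adjusted p = 0.0171). Marcks, a membrane-bound substrate of protein kinase C, made up 3.03%, 3.37% and 1.57% against 0.184%, 0.274% and 0.408%. Cd47, the surface signal that inhibits phagocytosis, made up 1.24%, 1.78% and 0.496% against 0.0506%, 0.0675% and 0.055%. With the repeat number as a block Cd47 lost the call (adjusted p = 0.0547). For these 4 every PTBP1 library exceeded every nucleolin library.

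Transcripts higher in the nucleolin IP were fewer. Cat, catalase, had 12880, 6208 and 2046 CPM in nucleolin IP libraries 1 to 3 and 168, 141 and 362 CPM in the PTBP1 IP (log2 fold change -4.98, SE 0.725, adjusted p = 0.0171). Pkd2, the retained-intron transcript of polycystin 2, had 4032, 1672 and 584 CPM against 50.6, 50.6 and 65.2 CPM (log2 fold change -5.24, SE 0.77, adjusted p = 0.0171). Igsf6, an immunoglobulin-family receptor of myeloid cells, had 11060, 5621 and 1428 CPM against 136, 147 and 338 CPM. Nucleolin library 3 was the lowest of its group in all 3, as PTBP1 library 3 had been for the transcripts largest toward PTBP1.

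The largest log2 fold change toward nucleolin was that of Proser3, at -5.25 (SE 0.906, adjusted p = 0.0201), with 940, 503 and 81.6 CPM against 11.2, 15.3 and 13.7 CPM. The other transcripts of the 12 largest were Ano3, a member of the anoctamin family, Mta3, a subunit of a chromatin remodelling complex, Clk4, a kinase of splicing factors (retained-intron form), Fam160b2, Cyb5r3, the NADH-cytochrome b5 reductase, Csf2ra, the GM-CSF receptor alpha chain, Spaca6 (retained-intron form) and Zfp74. Their log2 fold changes ran from -5.24 for Ano3 to -4.12 for Zfp74. With the repeat number as a block Spaca6 (adjusted p = 0.0558) and Zfp74 (0.135) lost the call, and with library totals Zfp74 did (0.0617).

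The blocked IPs show how far the libraries differed when each antibody had been incubated with its blocking peptide. How completely the peptides blocked the antibodies was not tested. No transcript passed the adjusted threshold between PTBP1 blocked IP and nucleolin blocked IP by edgeR (0% of 12618), 1615 had an unadjusted p under 0.05 (12.8%), and DESeq2 called 263 higher and 638 lower. Without PTBP1 blocked library 3 edgeR called 117 higher and 269 lower, and without the 4 libraries numbered 3 it called 88 and 8. Without nucleolin blocked library 3 it called 1. The blocked PTBP1 libraries also had 9.97% to 20.4% of joined transcripts at 0 counts, against 0.276% to 14.1% in the blocked nucleolin libraries.

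The 2 sets of called transcripts behaved differently in this background. Of the 190 higher in the PTBP1 IP, 176 (92.6%) had a blocked log2 fold change of the same sign, with a median of 1.26, and 87 had an unadjusted p under 0.05 there. Over all transcripts tested, 55.0% had the same sign in the IPs and the blocked IPs. Tagln2 had 7294, 14040 and 578 CPM in the PTBP1 blocked IP and 259, 223 and 322 CPM in the nucleolin blocked IP. Cd47 differed as much between blocked IPs (log2 fold change 5.68) as between IPs (5.47), and so did Tox2 (8.83 against 7.98). Gatm and Marcks differed less between blocked IPs, by 1.35 and 1.04 on the log2 scale. Of the 42 higher in the nucleolin IP, 13 (31.0%) had the same sign in the blocked IPs, their median there was 0.25, and 3 had an unadjusted p under 0.05. Cat had 359, 160 and 197 CPM in the PTBP1 blocked IP and 282, 214 and 274 CPM in the nucleolin blocked IP, so those groups overlapped.

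**Figure D2:**
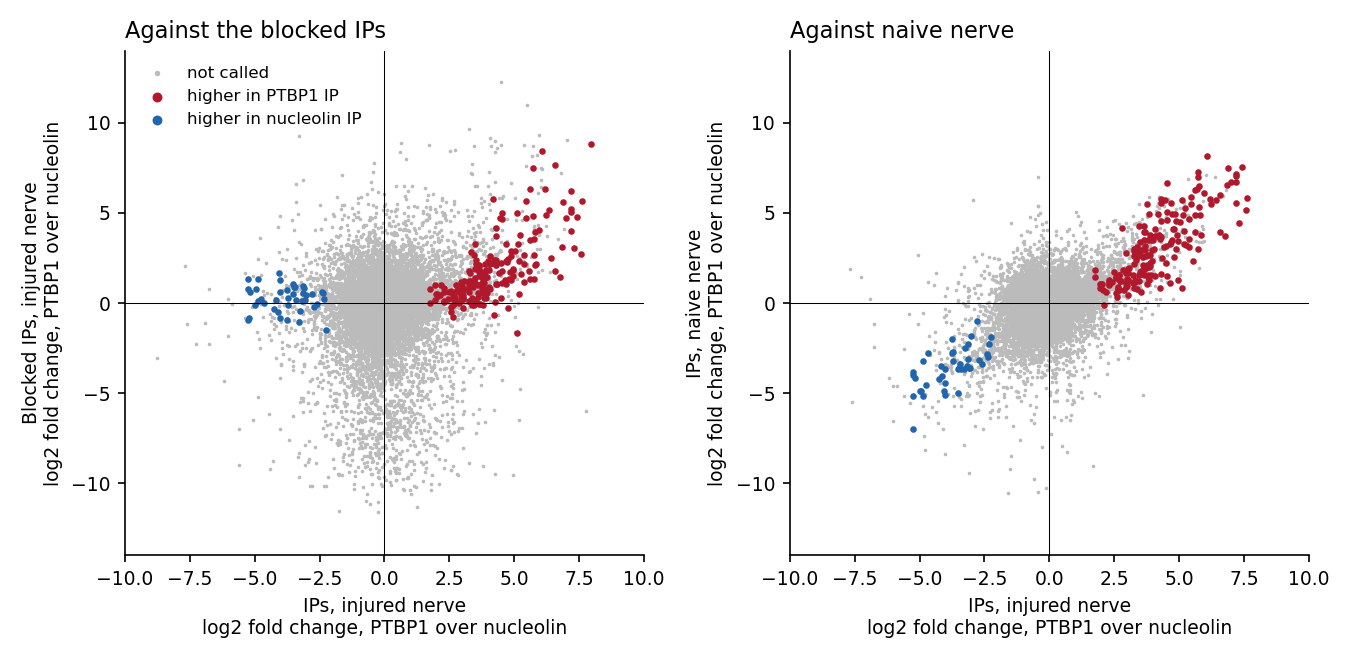
Log2 fold change of PTBP1 over nucleolin for each tested transcript, with the IPs of injured nerve on the horizontal axis and, on the vertical axis, the blocked IPs of injured nerve (left) or the IPs of naive nerve (right). Red points are the 190 transcripts higher in the PTBP1 IP and blue points the 42 higher in the nucleolin IP. On the left the red points lie mostly above 0 and the blue points lie around 0; on the right both sets fall on the side they have in injured nerve.

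The difference between the IPs was then compared with that between the blocked IPs in 1 contrast, enrichment over blocked IP for PTBP1 minus that for nucleolin. No transcript passed the adjusted threshold by edgeR (0% of 12618), 1297 had an unadjusted p under 0.05 (10.3%), and DESeq2 called 339 higher and 79 lower. Without PTBP1 IP library 3 edgeR called 26 transcripts, without nucleolin IP library 3 it called 9, without PTBP1 blocked library 3 it called 9 and without nucleolin blocked library 1 it called 1. Among the transcripts with the smallest p were Exoc4, a subunit of the exocyst that tethers secretory vesicles (-4.55 on the log2 scale, adjusted p = 0.115), Pkd2 (-6.60, adjusted p = 0.115), and Slc31a2, a copper transporter (-5.72, adjusted p = 0.157). Toward PTBP1 the smallest p-values belonged to Tti2, Vcp, Ssbp2, Ralgapb and Gnb4, each at 0.12 CPM or less in every PTBP1 blocked library, so their fitted differences depend on the handling of zeros and are not given, and to Tnfrsf23 (4.87, adjusted p = 0.157). Tested on its own, nucleolin IP over its blocked IP gave 11 transcripts, all higher (0.0872%), and 531 at an unadjusted p under 0.05 (4.21%). PTBP1 IP over its blocked IP gave 0 by edgeR (0%) and 2362 at an unadjusted p under 0.05 (18.7%). Because these contrasts share their IP libraries with the first one, the values stand side by side: the 190 transcripts had a median of 2.30 on PTBP1 IP over its blocked IP and of -0.14 on nucleolin IP over its blocked IP, and the 42 had -0.36 and 3.58.

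Pyrimidine tracts were longer in the transcripts higher in the PTBP1 IP. The longest run of C and T had a median of 33 bases (quartiles 19 and 61) in the 189 with a sequence in the annotation, and 14 bases (11 and 18) in all 12383 tested transcripts with one. A run of at least 40 bases was present in 83 of the 189 (43.9%, 95% exact binomial interval 36.7% to 51.3%) and in 4.05% of all. This interval, like the one given below for repeats, treats transcripts as independent and leaves out the spread between libraries. Of those 83 runs 82 lay in the 3′ untranslated region, against 330 of the 502 long runs in all tested transcripts. Of the 502, 121 were in transcripts without a coding sequence, which have no such region. Among protein-coding transcripts alone the counts were 82 of 82 and 322 of 372. On the sense strand the motif CTCTCT occurred 1.8 times per kilobase in the 189 and 0.606 times in all, where 61.7% of transcripts held at least 1. TCTT occurred 6.99 against 5.44 times per kilobase (97.9% of all transcripts held it), and TTCTCT, which overlaps the others, 0.796 against 0.538 times (68.6%). The motif TCCCGA, searched for nucleolin, occurred 0.119 times per kilobase in the 189, 0.132 times in the transcripts higher in the nucleolin IP and 0.112 times in all (27.9%). Such matches describe the sequence and are not sites of binding.

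The transcripts higher in the nucleolin IP were marked by cytosine-adenine repeats, a measure added after their sequences were seen. All 41 with a sequence held ACACAC, as did 52.3% of all tested transcripts, and it occurred 5.72 times per kilobase against 0.619 in all and 0.324 in those higher in the PTBP1 IP. The longest repeat had a median of 38 bases in the 41 and 6 bases in all. A repeat of at least 20 bases was present in 32 of the 41 (78.0%; interval 62.4% to 89.4%), in 3.89% of all and in 1 of the 189. Their pyrimidine runs had a median of 14 bases, the same as all transcripts.

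Longer transcripts can hold longer runs by length alone. The transcripts higher in the PTBP1 IP had a median length of 4029 bases, those higher in the nucleolin IP 3723 and all tested 2741. Among transcripts of 2000 to 5000 bases, a pyrimidine run of at least 40 bases was present in 39.6% of those higher in the PTBP1 IP and in 4.33% of all, and a cytosine-adenine repeat of at least 20 bases in 75.9% of those higher in the nucleolin IP and in 4.22% of all. GC content was close, with medians of 49.2%, 51.2% and 49.0%.

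Run length was related to the difference between the IPs of injured nerve over all transcripts, called or not. The median log2 fold change was -0.38 for transcripts whose longest pyrimidine run was 9 bases or less (1516 transcripts), -0.04 at 15 to 19 bases, 0.41 at 25 to 29, 0.72 at 30 to 39 and 2.08 at 40 or more (502 transcripts). The share called higher in the PTBP1 IP went from 0 of 1516 in the first of these classes to 16.5% in the last, where the share over all tested transcripts was 1.51%. In the blocked IPs the median was -0.14 in the first class, 0.18 at 30 to 39 bases and 1.02 at 40 or more, so transcripts with the longest runs were also higher in the blocked PTBP1 libraries. In the IPs of naive nerve the medians lay between -0.03 and 0.18 in all classes below 40 bases and reached 1.48 at 40 or more. Median transcript length went from 821.5 bases in the first pyrimidine class to 4272 in the last, and its part in the order of the classes was not tested. For cytosine-adenine repeats the median was -0.17 at 5 bases or less, -0.07 at 6 to 7 and -0.03 at 8 to 9, and it was lower in the longer classes: -0.12 at 10 to 14, -0.39 at 15 to 19, -0.72 at 20 to 29, -0.85 at 30 to 39 and -1.26 at 40 or more, where 9.14% were called higher in the nucleolin IP (0.333% over all). Scaling to library totals lowered every class and left the order of the pyrimidine classes, from -1.09 to 1.01; the longest repeat class then stood at -1.98. With TMM scaling the blocked medians were -0.07 in the shortest repeat class and 0.14, 0.36 and 0.19 in the 3 longest.

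**Figure D3:**
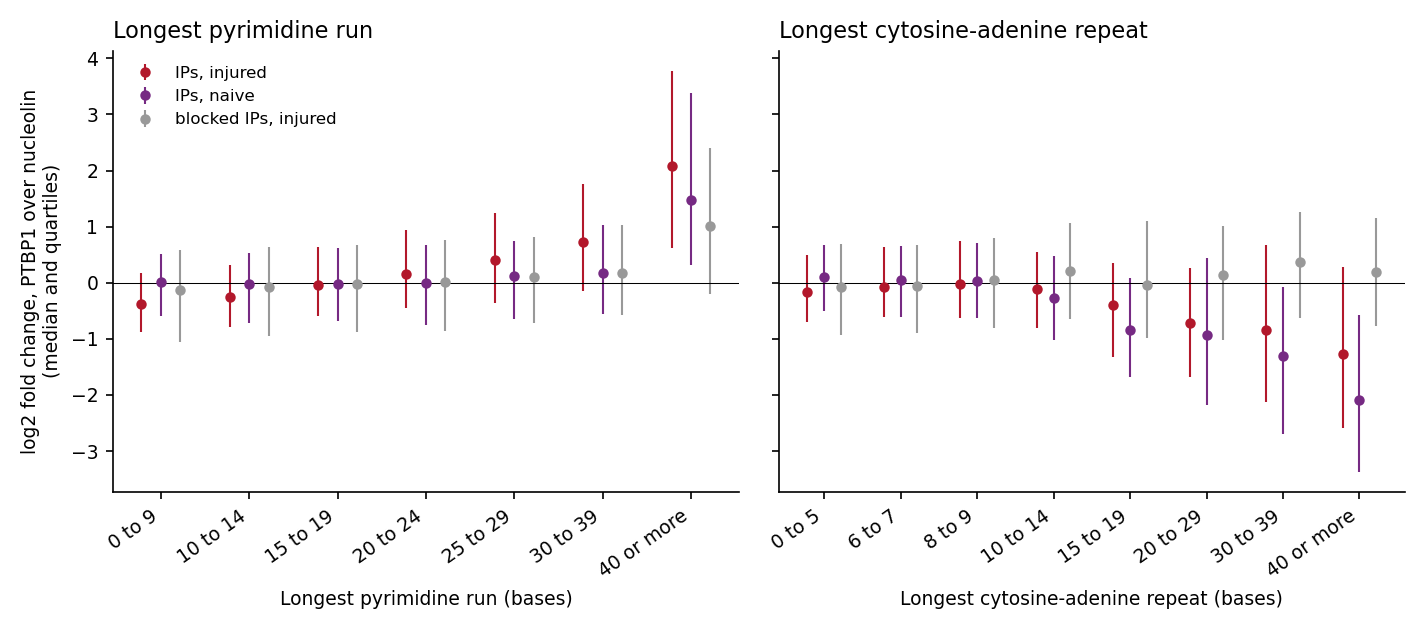
Median log2 fold change of PTBP1 over nucleolin (points) with quartiles (bars) by the length of the longest pyrimidine run (left) and of the longest cytosine-adenine repeat (right), for the IPs of injured nerve, the IPs of naive nerve and the blocked IPs of injured nerve. Medians rise with the pyrimidine run to 2.08 at 40 bases or more in injured IPs and are lowest, -1.26, in the longest repeat class. The blocked IPs reach 1.02 on the left and at most 0.36 on the right.

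Transcripts with both tracts took part in both patterns. The 75 transcripts with a pyrimidine run of at least 40 bases and a cytosine-adenine repeat of at least 20 had a median log2 fold change of 1.33 between the IPs. Between the blocked IPs the median of these 75 was 1.135, so a difference of similar size was present there. Their median was 2.01 for PTBP1 IP over its blocked IP and 2.44 for nucleolin IP over its blocked IP. The 427 with only the long pyrimidine run had 1.68 and 0.22, the 407 with only the repeat had 0.24 and 1.81, and the 11474 with neither had -0.05 and -0.10. Of the 427, 83 (19.4%) were called higher in the PTBP1 IP and none in the nucleolin IP. Of the 407, 30 (7.37%) were called higher in the nucleolin IP and 1 in the PTBP1 IP. Chst2, a sulfotransferase, and Prdm8, a histone methyltransferase-like regulator, were the 2 called transcripts with both tracts (named after their values were seen), and both were higher in the nucleolin IP.

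Shares of counts in each library need no call. The 502 transcripts with a pyrimidine run of at least 40 bases took 31.6%, 34.7% and 10.6% of the counts of PTBP1 IP libraries 1, 2 and 3, and 5.62%, 5.55% and 4.73% of the nucleolin IP libraries. The groups did not overlap (25.6% ± 13.1 against 5.30% ± 0.495, SD, n = 3; exact permutation p = 0.1, 2-sided, the smallest that 3 against 3 allows). The PTBP1 blocked libraries held 13.2%, 18.7% and 5.11%, and the nucleolin blocked libraries 3.95%, 4.27% and 4.11%. The 482 transcripts with a cytosine-adenine repeat of at least 20 bases took 23.2%, 16.7% and 6.25% of the nucleolin IP libraries and 7.48%, 7.89% and 4.47% of the PTBP1 IP libraries. These groups overlapped (15.4% ± 8.55 against 6.61% ± 1.87, SD, n = 3; exact permutation p = 0.3, 2-sided). Nucleolin IP library 3 lay below PTBP1 IP libraries 1 and 2. The PTBP1 blocked libraries held 5.54%, 6.35% and 3.50%, all above the nucleolin blocked libraries at 3.04% to 3.39%.

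Repeat 3 had the smallest share of tract-bearing transcripts in every IP group of injured and naive nerve. In naive nerve the long pyrimidine runs took 33.1%, 27.0% and 6.55% of the PTBP1 IP libraries, over the 10511 transcripts tested there that have a sequence, and the long repeats took 23.7%, 16.7% and 5.29% of the nucleolin IP libraries. The 3 injured inputs held 1.94%, 3.41% and 4.62% in the former class and 1.36%, 2.31% and 3.24% in the latter, over 11382 transcripts. Relative to the median of all transcripts in the same library, the long pyrimidine class stood 2.92, 2.55 and 0.881 higher on the log2 scale in the PTBP1 IPs of injured nerve, and between -0.02 and 0.11 in the inputs. In the PTBP1 blocked libraries of injured nerve it stood 1.97, 1.41 and 0.0932 higher, so blocked libraries 1 and 2 were above PTBP1 IP library 3. The labels give no date or batch beyond the repeat number, and the part of repeat 3 in the spread of these values was not tested.

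**Figure D4:**
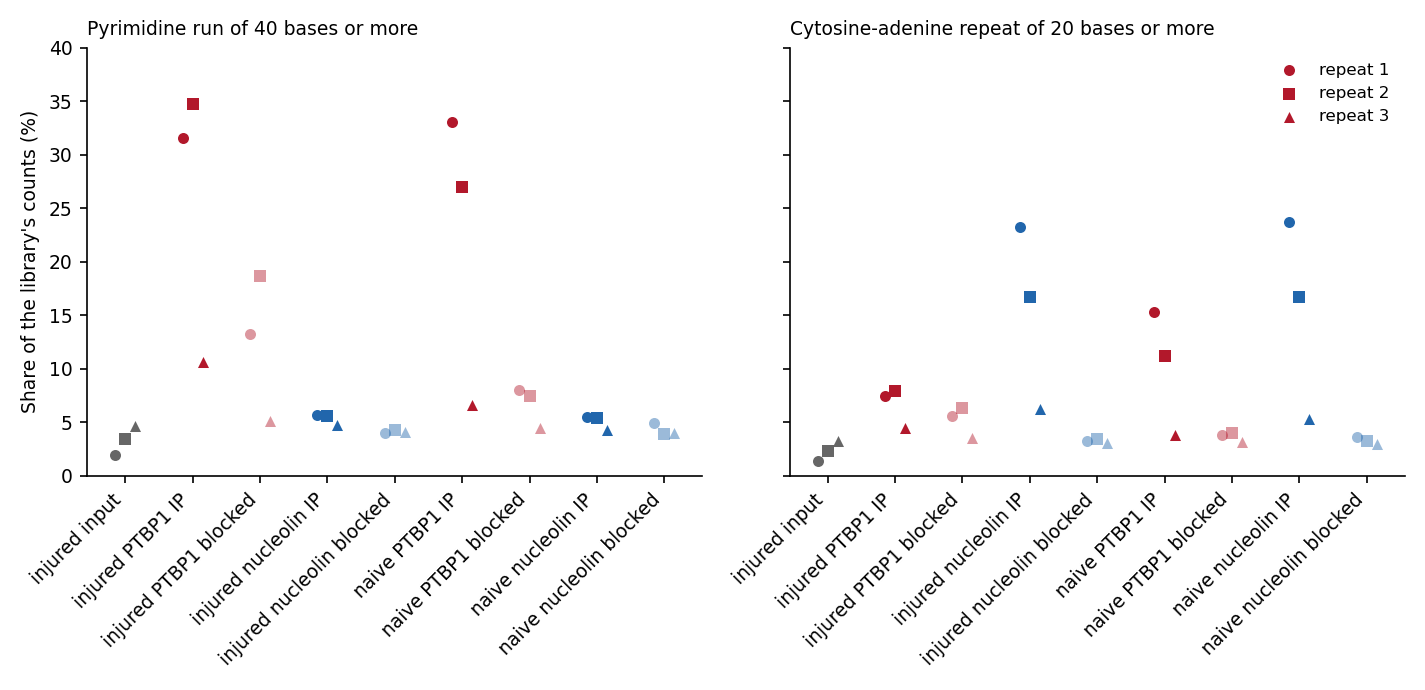
Share of each library's counts, in percent, in transcripts with a pyrimidine run of at least 40 bases (left) and in transcripts with a cytosine-adenine repeat of at least 20 bases (right). Each point is 1 library, its shape gives the repeat number, and blocked IPs are paler. The PTBP1 IPs reach 34.7% on the left and the nucleolin IPs 23.7% on the right, and the triangles of repeat 3 are the lowest in each IP group.

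The same comparison in naive nerve used other libraries. Of 10752 transcripts tested there, 73 were higher in the PTBP1 IP and 37 in the nucleolin IP (0.679% and 0.344%, together 1.02%), and 721 had an unadjusted p under 0.05 (6.71%). Leaving out 1 library gave 7 calls without PTBP1 library 1, 18 without PTBP1 library 2, 142 without PTBP1 library 3, 62 without nucleolin library 3, and 0 without nucleolin library 1 or 2. Scaling to library totals gave 57 and 52. Of the 190 transcripts higher in the injured PTBP1 IP, 187 were tested in naive nerve and 186 of these (99.5%) had the same sign, with 66 past the threshold. All 42 higher in the injured nucleolin IP had the same sign, with 20 past the threshold. Over all 10713 transcripts in both fits the share was 59.2%. Tagln2 had 29890, 19880 and 1030 CPM in the naive PTBP1 IP against 70.5, 60.3 and 140 CPM, and Cat had 37760, 18430 and 4176 CPM in the naive nucleolin IP against 878, 489 and 720 CPM.

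A change of the difference with injury was not detected. No transcript passed the adjusted threshold for the injured minus naive difference by edgeR (0% of 10752), 164 had an unadjusted p under 0.05 (1.53%), and DESeq2 called 4. Col1a1 differed by 4.32 in injured and 1.60 in naive nerve on the log2 scale, Gatm by 5.75 and 3.01, and Cyb5r3 by -4.66 and -2.77, and for these the adjusted p of the change was 0.9998. The corresponding values were 7.42 and 7.55 for Tagln2 and -4.98 and -4.86 for Cat.

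The mRNAs of the proteins themselves and of known axonal cargo came next. Rhoa, a small GTPase that controls actin and growth cone collapse, had 3849, 2643 and 1210 CPM in the PTBP1 IP and 256, 241 and 490 CPM in the nucleolin IP, without overlap (log2 fold change 2.97, SE 0.524, adjusted p = 0.0201). Its blocked IPs differed by 0.44. With library totals Rhoa lost the call (log2 fold change 1.90, adjusted p = 0.0745). Ncl, which encodes nucleolin, had 3879, 1371 and 867 CPM in the nucleolin IP and 489, 424 and 455 CPM in the PTBP1 IP. The groups did not overlap, yet Ncl missed the threshold (log2 fold change -2.16, SE 0.574, adjusted p = 0.0876). It passed with DESeq2 (-2.10, adjusted p = 0.0114) and with library totals (-2.87, adjusted p = 0.0342). Kpnb1, importin beta 1, had 238, 216 and 268 CPM in the PTBP1 IP and 231, 260 and 300 CPM in the nucleolin IP (log2 fold change -0.13, SE 0.356, adjusted p = 0.9997). Mtor, the growth-regulating kinase, had 4.84, 9.76 and 27.9 CPM against 27.2, 18.9 and 32.1 CPM, and those groups overlapped (log2 fold change -0.87, SE 0.854). The listed transcript of Ptbp1 lay between 0.98 and 1.77 CPM in all 6 IPs, and the coding transcript of Stat3 between 0.59 and 8.33 CPM, levels too low for a comparison.

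In lists of genes written for this tissue and these proteins, a gene stood for its most abundant tested transcript, and 12 of 460 listed and measured genes were called, 11 higher in the PTBP1 IP and 1 in the nucleolin IP. Over all transcripts tested 1.84% were called, 1.51% higher in the PTBP1 IP and 0.333% in the nucleolin IP, so the count over the lists lay near that of all transcripts. Of 19 published PTBP1 targets, Rhoa was called, and the list's median log2 fold change was 0.41, against -0.12 over all transcripts. The lists were chosen with earlier results of these data known, so these values are no independent support from published targets. Rhoa is also on the axonal list. Of 16 published nucleolin targets none was called, with a median of 0.13. Of 27 axonal mRNAs, Rhoa and Calr, the calcium-binding chaperone calreticulin (log2 fold change 2.86), were higher in the PTBP1 IP. The median of that list was 0.04. Of 28 motors and large cytoskeletal linkers, Kif1b, a kinesin (3.53), and Ahnak, a giant scaffold protein (1.77), were higher in the PTBP1 IP. The median of that list was -0.28, and Kif1b was not called with counts summed over the gene. Of 32 splicing factors and hnRNPs, Nono (3.43) was higher in the PTBP1 IP, with a list median of 0.03.

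Cell type lists gave few calls, to be read against the 1.51% of all transcripts called higher in the PTBP1 IP. Of 19 fibroblast and matrix genes, Col1a1, Col6a2 (7.18) and Thbs1, the matrix glycoprotein thrombospondin 1 (3.06), were higher in the PTBP1 IP, with a list median of 0.56. The Col6a2 value is that of 1 transcript, and counts summed over the gene gave 4.39. The summed level of that list was 47700 to 247400 CPM in the PTBP1 IPs and 19210 to 26740 CPM in the nucleolin IPs. Of 23 macrophage genes, Fcer1g, the shared chain of Fc receptors (4.48), was higher in the PTBP1 IP, and the list's median was -0.02. Of 11 repair Schwann cell genes, Sox4 (2.56) was higher in the PTBP1 IP. That list's median was 0.39, and its members differed in sign, for example Ngfr at -2.19, which was not called. None of 15 myelin and Schwann cell genes was called, with a list median of -0.12. Klf6, an immediate early transcription factor, was the 1 of 13 such genes called, with 2253, 2315 and 936 CPM in the nucleolin IP against 391, 375 and 337 CPM (log2 fold change -2.32, adjusted p = 0.0218). The median of those 13 genes was 0.18. Of 17 cholesterol synthesis genes, Hsd17b7 (3.81) was higher in the PTBP1 IP, with a list median of 0.05.

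None of 78 cytosolic ribosomal protein genes was called, with a list median of -0.53 between the IPs, -0.19 between the blocked IPs and 0.15 in naive nerve. None was called among 24 translation factors (median -0.41), 30 respiratory chain genes (-0.27), 20 genes of ribosome biogenesis (-0.49), 13 nuclear noncoding RNAs (-0.22), 12 histones (0.31), 17 cell cycle genes (0.20) and 17 cytokines (0.35). The same held for 13 endothelial genes, 6 adipocyte genes, 5 lymphocyte genes, 5 neuronal genes, 5 muscle genes, 4 neutrophil genes, 4 globin and red cell genes and 4 possible sites of ribosomal RNA reads. Adipocyte genes, whose summed level was 139 to 543 CPM in the PTBP1 IPs and 847 to 1506 CPM in the nucleolin IPs, ranged from 355 to 22180 CPM in the PTBP1 blocked libraries, and their part in any result was not tested.

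Transcripts listed in only 1 of the 2 tables could not be tested, because each table was filtered on its own libraries. The PTBP1 table alone held 2360, of which 1189 had at least 5 counts in all 3 injured PTBP1 IP libraries. The nucleolin table alone held 3160, of which 2778 had that many in the injured nucleolin IPs. Among the 5 with the most counts in the PTBP1 IPs were the retained-intron transcript of Zc3h7a, a zinc finger protein (3724, 4696 and 1141 counts, pyrimidine run of 194 bases), Dok5, an adaptor of receptor tyrosine kinases (2068, 3281 and 826 counts, run of 145 bases), and Zmat3 (3714, 1123 and 619 counts, run of 129 bases). The other two, Rbms2 and a transcript of Pds5b, had runs of 20 and 9 bases. In the nucleolin table the 5 were transcripts of Lrrc49 (10960, 4405 and 1838 counts), N6amt1 (3744, 724 and 287), Zfp37, Mpzl3 and Sh3rf3, with cytosine-adenine repeats of 8, 41, 19, 13 and 17 bases. The median longest pyrimidine run was 12 bases in each of the 2 sets of 1-table transcripts.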

How the data were processed

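The values were raw read counts per Ensembl transcript, deposited by the authors in tables of which 4 were used. Each of the 3 IP tables lists only transcripts that reach 5 counts or more in every library of some group in it. The submitters' processing notes name CASAVA 1.8.2, edgeR and the builds mm10 and GRCm38. The aligner, counter, strand setting and counted annotation were not given in the sources used here. Transcripts sharing sequence with other forms of a gene are uncertain in level.

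Counts of the 12 injured IP and blocked IP libraries were fitted together in edgeR 4.0.16 (R 4.3.3) with filterByExpr, TMM scaling, the quasi-likelihood test and Benjamini-Hochberg adjustment over all transcripts tested. The naive comparison and its difference from injured nerve came from a fit of 24 libraries over the 10754 transcripts in the 3 IP tables. Standard errors are the absolute log2 fold change divided by the square root of F. The script was tested on simulated counts. DESeq2 1.42.0, library totals, the repeat number as a block, other sets of libraries and leaving out each library were alternatives. The cytosine-adenine repeat measure, the window of 2000 to 5000 bases and the fit without the 4 libraries numbered 3 were added after seeing the data. Per-library shares were compared by an exact permutation test in SciPy 1.17.1.

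Sequences, regions and coordinates came from GENCODE release M21 on GRCm38, which held 98.1% of the joined identifiers. Per-library offsets used log2(CPM + 0.5).

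Named transcripts were the 12 with the largest log2 fold change in each direction among those past the threshold with groups not overlapping and a mean of at least 5 CPM in the higher group, 1 per gene and without predicted gene models. Up to 4 members of each of the 27 gene lists, 6 transcripts per direction for the enrichment difference, 5 per table for those in 1 table, and Ptbp1, Ncl, Kpnb1, Mtor, Rhoa and Stat3 were added. Members and lists were chosen with earlier results of these data known.

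Same-numbered PTBP1 and nucleolin IPs of injured nerve deviated together from their group means (correlations 0.185, 0.208 and 0.355). The blocked IPs gave 0.0213, -0.00216 and 0.131. The labels only number the repeats, and the main fit treated the libraries as unpaired, so its calls ignore any such pairing. The repeat number as a block was an alternative fit, in which 131 of the 232 transcripts were still called. Replicates of a group differed beyond sampling noise (chi-square divided by its degrees of freedom was 91.2 or more). Intervals cover counting error only. Some named transcripts are not reported here.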

Additional observations from a re-analysis of the deposited data

Results flagged for a closer look

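Eif3b, a subunit of the translation initiation factor eIF3, differed in opposite directions before and after injury. The log2 fold change of PTBP1 IP over nucleolin IP was -0.83 in injured nerve, where the 3 PTBP1 libraries held 83.2, 92.2 and 91.5 CPM and the nucleolin libraries 166, 155 and 153 CPM, and 0.84 in naive nerve, where they held 270, 124 and 139 CPM and 75.3, 117 and 105 CPM. In each condition the groups did not overlap, which was the rule for flagging. The rule asked, among the named transcripts, for groups fully apart in opposite directions in injured and naive nerve. The lack of overlap is therefore no separate evidence of a reversal. In injured nerve alone the groups did not overlap for 22.6% of all transcripts tested. Neither difference passed the adjusted threshold (adjusted p = 0.387 and 0.9998), and the test of the change between conditions gave an adjusted p of 0.9998.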

How the results depend on the processing

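In the injured comparison of IPs, 232 transcripts were called. The count was 712 with DESeq2, 782 with only the 6 IP libraries, 133 with library totals and 144 with the replicate block, and leaving out 1 library gave 0 to 325. All 232 kept their direction in each of these fits. Leaving out 1 library could not have reversed them, because their groups did not overlap. The fit of 24 libraries held 229 of them, all in the same direction. Between the blocked IPs the count of 0 became 901 with DESeq2, 5 with library totals, 6 with 24 libraries, 96 without the libraries numbered 3 (chosen after seeing the data) and 0 to 386 with 1 library left out. For the enrichment difference it became 418, 2 and 0 to 26 with DESeq2, library totals and 1 library left out. In naive nerve 110 became 330 with DESeq2 and 0 to 142 with 1 library left out; the change with injury went from 0 to 4 with DESeq2 and stayed at 0 with 1 library left out. Blocking on the repeat number gave 0 blocked, 0 enrichment, 97 naive and 0 change calls, so the block moved no other count by over 1.5 times. The cause of these changes was not tested.

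Over the 500 highest and 500 lowest log2 fold changes in place of the called transcripts, median length was 3394 and 2501 bases, and cytosine-adenine repeats of at least 20 bases were present in 3.6% and 28.2%. Among transcripts of 2000 to 5000 bases none of those higher in the PTBP1 IP held one (0%). Summing counts per gene called 2 listed genes higher in the nucleolin IP, Klf6 among them, and 10 in the PTBP1 IP. For the transcripts whose settings were followed by name, 278 of their values kept their side of the threshold, 153 lost the call, 2, both of Ncl, gained it and none reversed.

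With 3 libraries a group and repeat 3 less enriched than the others, the smallest called log2 fold change was 1.76 toward PTBP1. Toward nucleolin it was 2.24 in size. These sizes are not a limit above which every difference was called. In simulated counts for this comparison, 0 of 50 transcripts changed by 2 on the log2 scale were recovered. Of those changed by 4, 16 of 50 were recovered, and of those changed by 6, 32 of 50.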
